A study of Mus musculus with 16 samples.

Results

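The MHC class II antigen presentation genes of the mouse atrium were followed through 14 array probes annotated to 10 genes, out of 25697 probes on each array. The genes were the peptide-binding chains H2-Aa, H2-Ab1 and H2-Eb1, the invariant chain Cd74, the peptide exchange genes H2-DMa, H2-DMb1 and H2-DMb2, their modulators H2-Oa and H2-Ob, and the transactivator Ciita. H2-Ab1 had 4 probes, Cd74 had 2 and the other genes had 1 each. The genes were chosen by their LA against RA values on these same arrays, so those values are given as a description, with no test. Gene expression was measured in left (LA) and right atria (RA) of wild-type mice of the outbred strains MF1 and Swiss Agouti, with 4 arrays for each side and strain and 16 in all. The labels give an age of 12 months for both strains. The study's methods and its sample table differ on the age of the Swiss Agouti mice. The table lists the MF1 mice as male and the Swiss Agouti mice as female, so strain and sex cannot be told apart here. No animal was treated, and no samples were pooled.

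Values are on a log2 scale. The authors normalised each strain on its own and set each probe to the median of that strain's 8 arrays. A value of 0 is therefore the strain's median for that probe, and neither levels nor detection can be read from it. Levels were not compared between genes or between strains. Atrial tissue contains many cell types, and in whole tissue more cells that express a gene and more RNA per cell cannot be told apart.

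MHC class II molecules present peptides from the endosomal route to CD4+ T cells. They are made mainly by dendritic cells, macrophages and B cells, and in the heart by resident and infiltrating leukocytes. The alpha chain (H2-Aa) pairs with the beta chain (H2-Ab1) to form H2-A, and H2-Eb1 is the beta chain of H2-E. The invariant chain Cd74 occupies the groove during transport and is then degraded by proteases that include cathepsin S. H2-DM, formed by an alpha chain (H2-DMa) and a beta chain (H2-DMb1 or H2-DMb2), exchanges the remaining fragment for peptide, and H2-O (H2-Oa and H2-Ob) restrains H2-DM, mainly in B cells. Ciita is a coactivator that does not bind DNA itself. It docks on factors of the RFX, CREB and NF-Y families, which sit on the X and Y boxes upstream of class II genes.

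The promoter stretches that carry these boxes are shown because they are the shared feature of the genes and because H2-DMb1 and H2-DMb2, which behaved differently below, are alike there in 46 of 52 positions. RefSeq (build GRCm38.p6) held promoter windows for 7 of the 10 genes, from 250 bases before to 50 bases after the start. The letters were chosen after the windows had been viewed: TGATTGG for the Y box, and AACNNATG for part of the X box. Each stretch runs from 40 bases before to 5 bases after the Y letters on the gene's strand, and capitals mark both sets of letters.
H2-Aa: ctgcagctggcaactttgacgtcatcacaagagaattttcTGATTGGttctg
H2-Eb1: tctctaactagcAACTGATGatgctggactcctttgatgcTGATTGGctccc
H2-DMb1: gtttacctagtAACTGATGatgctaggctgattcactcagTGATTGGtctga
H2-DMb2: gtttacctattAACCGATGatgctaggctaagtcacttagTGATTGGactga
H2-Oa: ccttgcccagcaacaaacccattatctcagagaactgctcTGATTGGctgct
H2-Ob: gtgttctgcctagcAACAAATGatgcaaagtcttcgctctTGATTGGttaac
These stretches lie on chromosome 17 at chr17:34287862-34287913 (minus strand) for H2-Aa, chr17:34305766-34305817 for H2-Eb1, chr17:34153088-34153139 for H2-DMb1, chr17:34145117-34145168 for H2-DMb2, chr17:34092294-34092345 for H2-Oa and chr17:34238806-34238857 for H2-Ob, the last 5 on the plus strand. All lie upstream of the annotated start.

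The Y letters were found in 6 of the 7 genes and in 7.82% of the 32851 promoter windows in the table, counting both strands. The X letters followed by the Y letters, with starts 15 to 30 bases apart on 1 strand, were found in 4 of the 7 genes and in 8 of all windows (0.0244%). The distance between the starts was 28 bases in H2-Eb1, 29 in H2-DMb1 and in H2-DMb2, and 26 in H2-Ob. Neither set of letters was found in the windows of H2-DMa. Both sets of letters were searched on both strands and cannot overlap at these distances. A match is a description of letters, not of bound factors.

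MF1 LA replicate 2 stood apart over the whole array. The spread of all probes around their group mean had an SD of 0.226 on it, against 0.0951 to 0.154 on the other 15 arrays. This array was the highest of the 8 MF1 arrays in 17.4% of all probes and in 12 of the 14 class II probes, the exceptions being H2-DMb2 and H2-Ob. The labelled sides were checked with Bmp10, a ligand gene of the right atrium, which was 4.23-fold higher in RA in MF1 and 12.5-fold higher in Swiss Agouti. In both strains its 4 LA arrays lay below its 4 RA arrays. The values of MF1 are therefore given with and without LA replicate 2.

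Cd74, the invariant chain, had the widest range of the class II probes. Its first probe read -1.26, 2.14, -0.79 and -0.75 on the MF1 LA arrays 1 to 4, and 0.58, 1.19, 0.10 and 0.31 on the RA arrays. In Swiss Agouti the same probe read -1.90, -0.07, -0.98 and -1.26 in LA, and 1.41, 0.05, 0.29 and 0.26 in RA. In Swiss Agouti the sides did not overlap, with LA replicate 2 and RA replicate 2 nearest to each other. In MF1 the sides did not overlap once LA replicate 2 was set aside. That array was 8.41-fold above the mean of the other 3 LA arrays and 0.95 log2 units above the highest RA array.

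With all arrays, this Cd74 probe was higher in RA by 0.71 ± 0.67 log2 units in MF1 (SE, n = 4 and 4). Without LA replicate 2 the figure was 1.48 ± 0.24, a 2.79-fold higher RA signal, and in Swiss Agouti it was 1.56 ± 0.38, or 2.94-fold. The second Cd74 probe was higher in RA by 0.51 ± 0.66, 1.26 ± 0.22 and 1.40 ± 0.35 in the same order. On that probe the Swiss Agouti sides overlapped, with LA replicate 2 at -0.03 and RA replicate 2 at -0.15. The correlation between both probes was 0.993 over the 8 arrays of MF1 and 0.992 over those of Swiss Agouti, arrays that share their hybridisation.

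**Figure D1:**
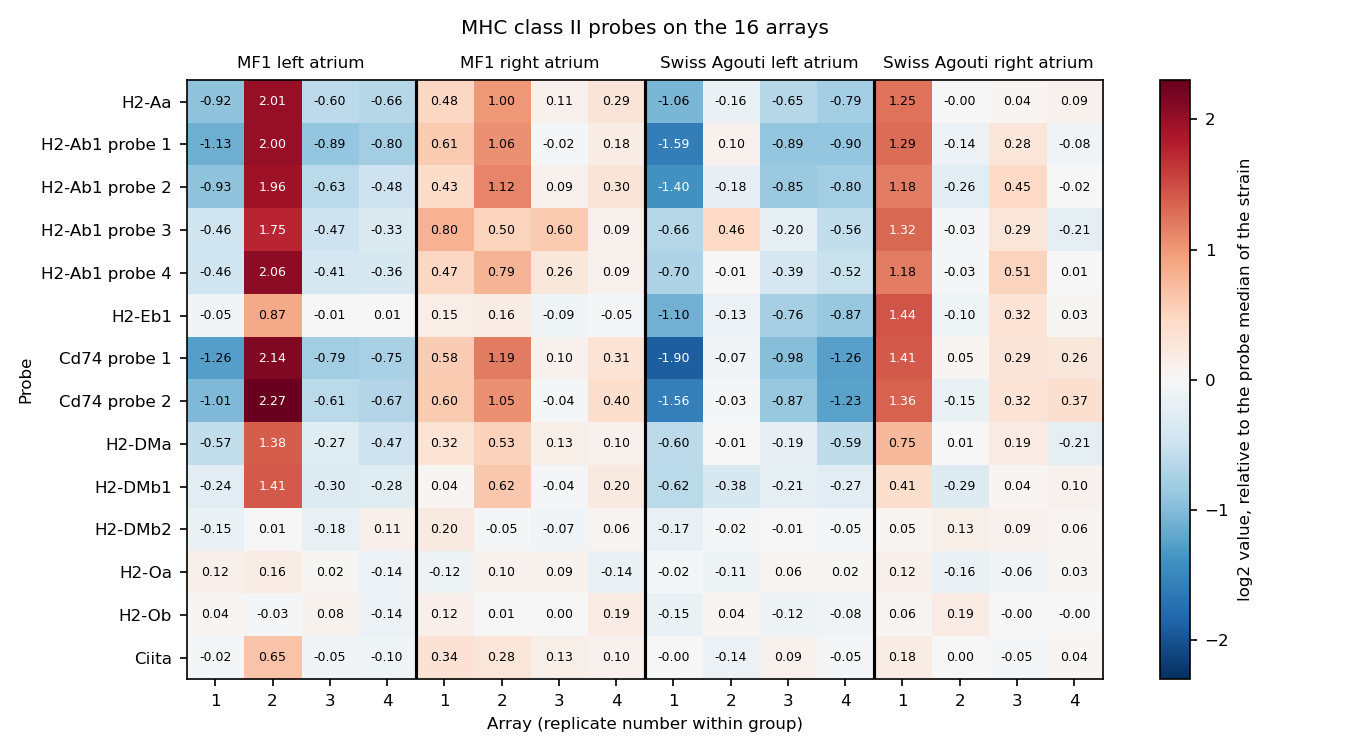
Log2 value of each of the 14 MHC class II probes (vertical) on each of the 16 arrays (horizontal, replicate number within group), relative to the probe's median in its strain. MF1 LA replicate 2 was the highest of the 8 MF1 arrays in 12 probes, and the probes of H2-DMb2, H2-Oa and H2-Ob stayed near 0 on the arrays of both strains.

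H2-Aa, the alpha chain of H2-A, followed the same course over a narrower range. It read -0.92, 2.01, -0.60 and -0.66 in the LA of MF1 and 0.48, 1.00, 0.11 and 0.29 in the RA. In Swiss Agouti it read -1.06, -0.16, -0.65 and -0.79 in LA, and 1.25, -0.00, 0.04 and 0.09 in RA. As with the first Cd74 probe, the Swiss Agouti sides were separate and the MF1 sides were separate only without LA replicate 2. The RA excess was 0.51 ± 0.59 log2 units in MF1, 1.20 ± 0.19 without that array (2.29-fold) and 1.01 ± 0.28 in Swiss Agouti (2.02-fold). The Swiss Agouti excess leaned on RA replicate 1, and was 0.71 log2 units without it.

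H2-Ab1, the partner beta chain, was measured by 4 probes. On the first probe the MF1 LA arrays read -1.13, 2.00, -0.89 and -0.80 and the RA arrays 0.61, 1.06, -0.02 and 0.18. The Swiss Agouti LA arrays read -1.59, 0.10, -0.89 and -0.90, and the RA arrays 1.29, -0.14, 0.28 and -0.08. Here LA replicate 2 of Swiss Agouti lay among the RA arrays. The RA excess over the 4 probes was 0.20 to 0.66 log2 units in MF1, 0.82 to 1.39 without LA replicate 2, and 0.58 to 1.15 in Swiss Agouti. These values leaned on single arrays. The lowest Swiss Agouti value, on the third probe, was 0.26 without RA replicate 1, and the lowest MF1 value, on the fourth probe, turned to a higher LA without LA replicate 1 (by 0.02) or 3 (by 0.01). The correlations between the 4 probes ran from 0.920 to 0.994 in MF1 and from 0.901 to 0.985 in Swiss Agouti, but the size of the difference depended on the probe. On a single array the 4 probes lay up to 0.67 log2 units apart in MF1 and 0.93 in Swiss Agouti.

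H2-Eb1, the beta chain of H2-E, was the member with the most unlike course in the strains. In MF1 it read -0.05, 0.87, -0.01 and 0.01 in LA and 0.15, 0.16, -0.09 and -0.05 in RA. In Swiss Agouti it read -1.10, -0.13, -0.76 and -0.87 in LA and 1.44, -0.10, 0.32 and 0.03 in RA. With no array set aside, the MF1 arrays spanned 0.97 log2 units and the Swiss Agouti arrays 2.54. Apart from LA replicate 2, the MF1 arrays lay within 0.25 log2 units of each other. LA exceeded RA by 0.16 ± 0.20 in MF1, RA exceeded LA by 0.06 ± 0.07 without LA replicate 2, and in Swiss Agouti RA exceeded LA by 1.14 ± 0.32, or 2.20-fold. The Swiss Agouti excess was 0.80 without RA replicate 1.

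The span of H2-Eb1 over the 8 arrays was 33.0% of that of H2-Aa in MF1 (13.2% without LA replicate 2) and 109.7% in Swiss Agouti. Its direction from array to array was nevertheless shared in MF1. The correlation of its deviations from the group means with those of the probes of H2-Aa, H2-Ab1 and Cd74 was 0.993 over 8 arrays, and 0.915 over 7 without LA replicate 2. The difference between the strains was not tested, since the left-right values chose the members. Each strain was normalised apart, and sex changes with strain. The other genes of H2-E and its neighbourhood on the array, H2-Ea (the alpha chain) and H2-Eb2, differed between the sides by 0.06 and -0.03 log2 units in MF1 and by -0.03 and 0.01 in Swiss Agouti (LA minus RA).

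**Figure D2:**
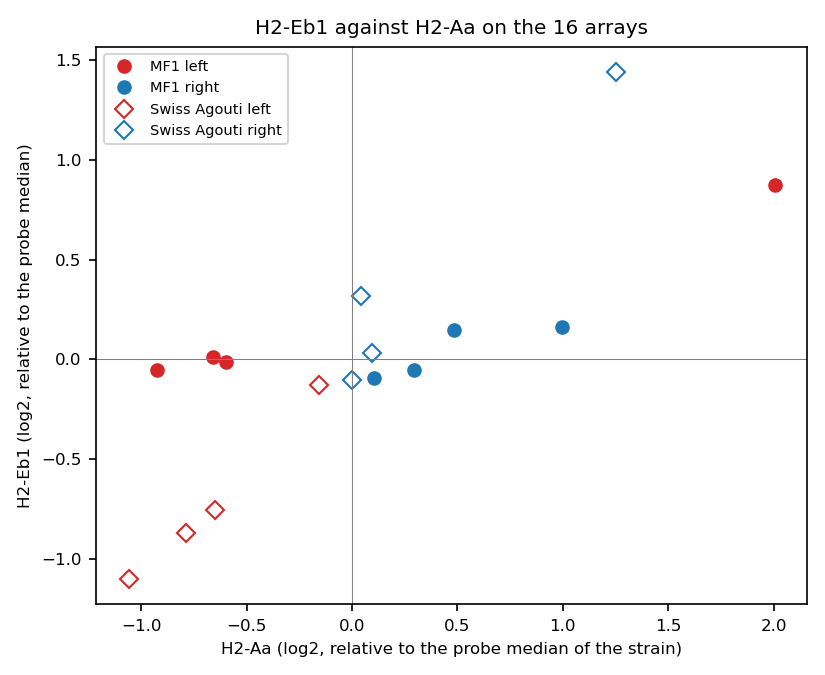
H2-Eb1 (vertical, log2) against H2-Aa (horizontal, log2) on the 16 arrays, each relative to the probe's median in its strain, with filled circles for MF1 and open diamonds for Swiss Agouti. The Swiss Agouti arrays spread over 2.54 log2 units of H2-Eb1 and the MF1 arrays over 0.97, or 0.25 without LA replicate 2.

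The H2-DM genes, which load peptide, moved less. H2-DMa read -0.57, 1.38, -0.27 and -0.47 in the LA of MF1 and 0.32, 0.53, 0.13 and 0.10 in the RA, and in Swiss Agouti -0.60, -0.01, -0.19 and -0.59 against 0.75, 0.01, 0.19 and -0.21. Its RA excess was 0.25 ± 0.39 log2 units in MF1, 0.71 ± 0.11 without LA replicate 2 (1.63-fold) and 0.53 ± 0.20 in Swiss Agouti (1.44-fold). Without RA replicate 1 the Swiss Agouti excess of H2-DMa was 0.34. The Swiss Agouti sides overlapped, with RA replicate 4 below LA replicates 2 and 3.

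H2-DMb1 read -0.24, 1.41, -0.30 and -0.28 in the LA of MF1 and 0.04, 0.62, -0.04 and 0.20 in the RA. Its RA excess was 0.06 ± 0.37 in MF1, 0.48 ± 0.14 without LA replicate 2 and 0.43 ± 0.14 in Swiss Agouti. The MF1 direction turned to a higher LA, by 0.07 to 0.09, when LA replicate 1, 3 or 4 or RA replicate 2 was dropped. H2-DMb2, the neighbouring beta chain gene with the similar promoter stretch, stayed between -0.18 and 0.20 on the MF1 arrays and between -0.17 and 0.13 on those of Swiss Agouti. MF1 LA replicate 2, which was 3.21-fold above the other LA arrays in H2-DMb1, was 1.06-fold above them in H2-DMb2. Near-identical genes can share hybridisation, so the probe assignment within this pair is uncertain. The left-right difference of H2-DMb2 was small in every comparison, with an RA excess of 0.09 ± 0.09 in MF1 and 0.15 ± 0.05 in Swiss Agouti.

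H2-Oa and H2-Ob, the modulators of H2-DM, showed no wide movement on any array. H2-Oa ranged from -0.14 to 0.16 in MF1 and from -0.16 to 0.12 in Swiss Agouti. H2-Ob ranged from -0.14 to 0.19 in MF1 and from -0.15 to 0.19 in Swiss Agouti. The RA excess of H2-Ob was 0.10 ± 0.07 and 0.14 ± 0.06 log2 units, and H2-Oa differed by 0.06 ± 0.09 and 0.00 ± 0.07 (LA minus RA). A flat probe may also be one whose transcript lay below detection, and these centred values cannot separate the cases.

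Ciita, the coactivator of the other genes, read -0.02, 0.65, -0.05 and -0.10 in the LA of MF1 and 0.34, 0.28, 0.13 and 0.10 in the RA. In Swiss Agouti it read -0.00, -0.14, 0.09 and -0.05 against 0.18, 0.00, -0.05 and 0.04. MF1 LA replicate 2 was again the highest array, at 1.63-fold above the other LA arrays. The RA excess was 0.09 ± 0.16 in MF1, 0.27 ± 0.07 without that array, and 0.07 ± 0.07 in Swiss Agouti. The deviations of Ciita had a correlation of 0.966 with those of the chain genes over the 8 MF1 arrays, 0.63 over 7 arrays, and 0.19 in Swiss Agouti.

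**Figure D3:**
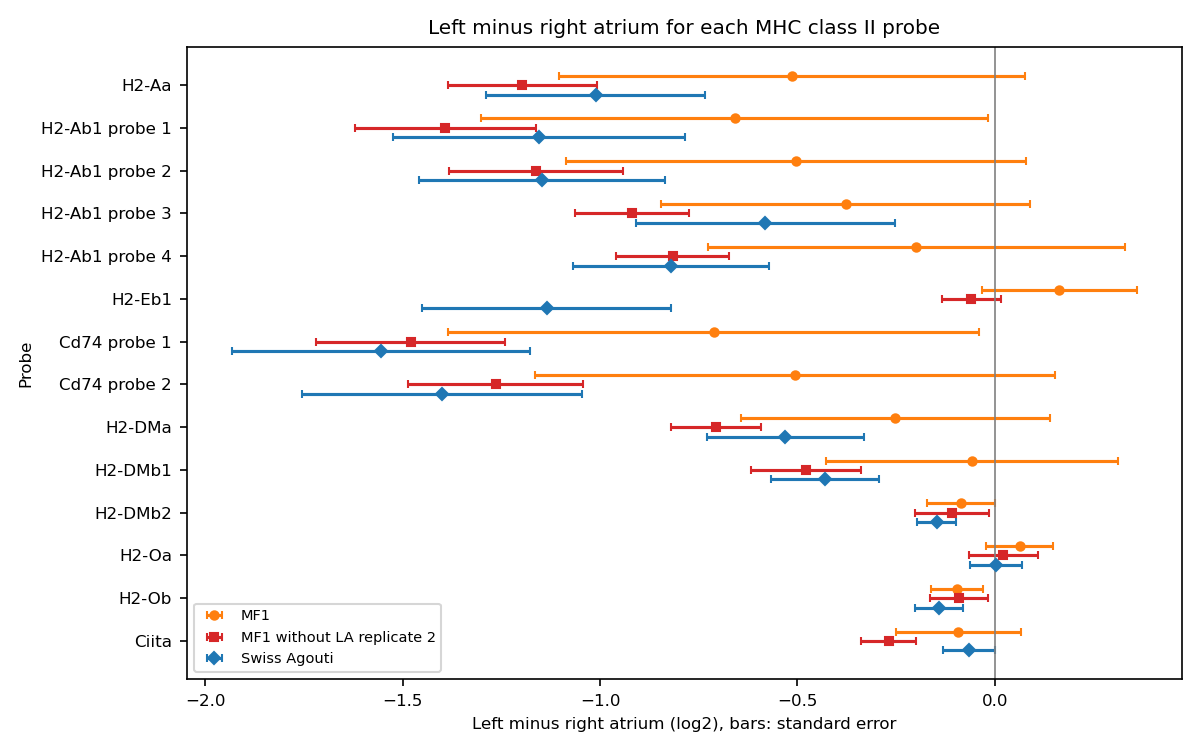
Left minus right atrium (horizontal, log2, with standard error) for each class II probe (vertical), for MF1 with 4 arrays a side, for MF1 without LA replicate 2, and for Swiss Agouti. Without that array the MF1 values of Cd74, H2-Ab1 and H2-Aa moved to between -0.82 and -1.48, and H2-Eb1 stayed near 0 in MF1 but reached -1.14 in Swiss Agouti.

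Over the 14 probes, the median RA excess was 0.23 log2 units in MF1 (1.17-fold), 0.76 without LA replicate 2 (1.70-fold) and 0.70 in Swiss Agouti (1.63-fold), where the median of all 25697 probes was 0.00 in each. RA was the higher side in 12 probes in MF1, where it was so in 50% of all probes, in 13 without LA replicate 2 (50.4%) and in 13 in Swiss Agouti (49.4%). In the fit over all probes (limma, adjusted p under 0.05 and more than 1.5-fold), 0 of the 14 passed in MF1, where 0.79% of all probes passed. The count at an unadjusted p under 0.05 was also 0, against 10.9% of all probes. Without LA replicate 2, 8 of the 14 passed, all higher in RA (both Cd74 probes, the 4 H2-Ab1 probes, H2-Aa and H2-DMa), where 1.12% of all probes passed and 0.599% passed as higher in RA. In Swiss Agouti 0 passed, where 0.63% of all probes did, and 11 had an unadjusted p under 0.05, against 12.6%. Leaving out Swiss Agouti LA replicate 2 let both Cd74 probes pass, where 0.611% of all probes passed. Since the contrast chose the genes, these counts are not read as evidence.

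The 4 LA arrays lay below the 4 RA arrays in 0 class II probes in MF1 and in 3.77% of all probes. Without LA replicate 2 they did so in 10 probes, against 6.18%. In Swiss Agouti they did so in 4 probes (H2-Aa, H2-Eb1, the first Cd74 probe and H2-DMb2), against 3.71%.

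In MF1, where arrays of the same replicate number deviated together, they were also set side by side. There LA minus RA had a median over the 14 probes of -0.91 for number 1, -0.48 for number 3 and -0.47 for number 4, and of 0.85 for number 2, where 1 probe was lower in LA. Number 2 was thus the inverted set. The right atrium of number 2 was also raised in MF1, being the highest of the 4 RA arrays in 10 of the 14 probes, against 24.9% of all probes. In Swiss Agouti, where arrays of the same number did not deviate together, LA replicate 1 was the lowest of the 8 arrays in 12 probes (13.4% of all probes) and RA replicate 1 the highest of the 4 RA arrays in 12 (24.7%).

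**Figure D4:**
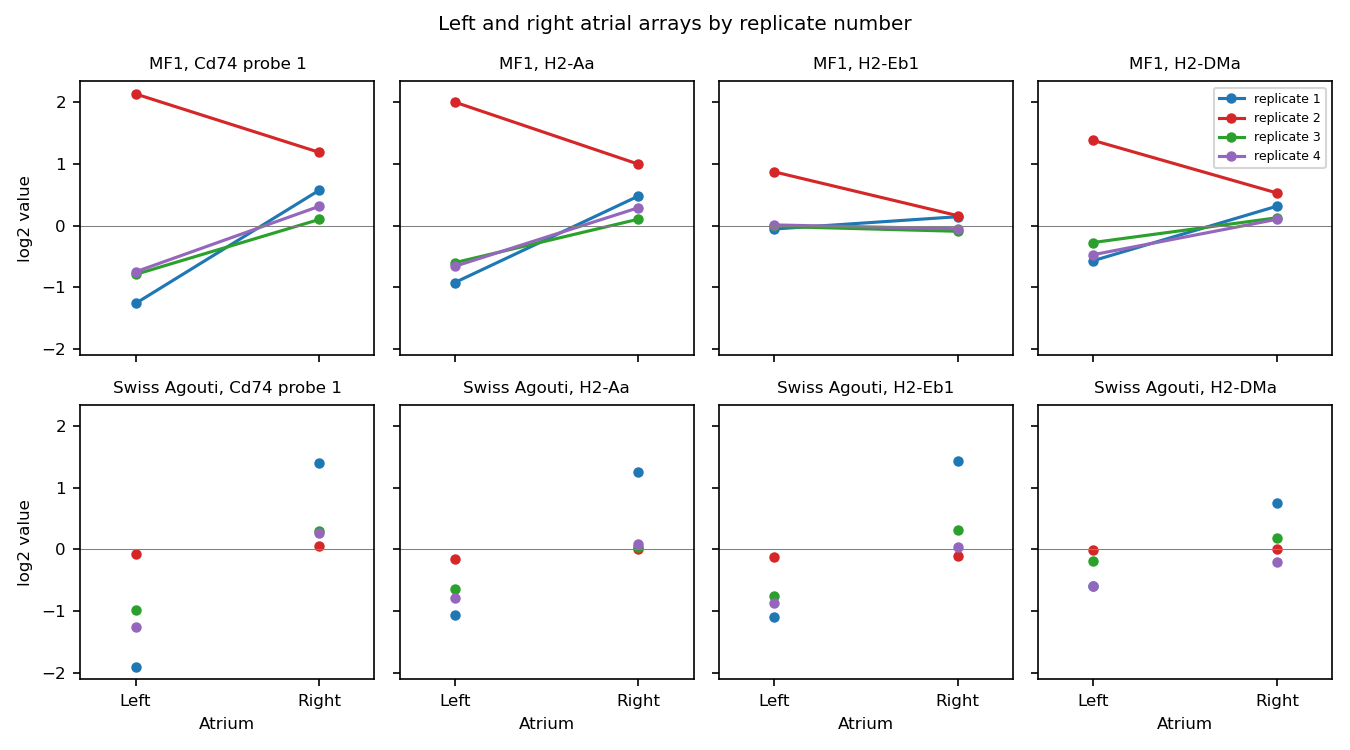
Log2 value of Cd74 (first probe), H2-Aa, H2-Eb1 and H2-DMa (columns) in left and right atrium, coloured by replicate number, for MF1 (upper row, arrays of the same number joined) and Swiss Agouti (lower row, not joined because arrays of the same number did not deviate together). In MF1 the lines of number 2 fall from left to right, and for Cd74, H2-Aa and H2-DMa the other lines rise.

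The class II genes also varied widely from array to array. Among all probes, the median span over 8 arrays was 0.29 log2 units in MF1 and 0.26 in Swiss Agouti, whereas the class II probes had median spans of 2.09 and 1.93. Of the 14 probes, 9 in MF1 and 10 in Swiss Agouti had spans above the 95th percentile of all probes, at 1.02 and 0.72. Without LA replicate 2, 9 still did so in MF1, at a limit of 0.79. The spans cover both sides and so include the left-right difference that chose the genes. They are a description only. Within groups the chain genes moved as a block. The correlation of each probe's deviations with those of the other 3 chain genes, taken over the 8 probes of H2-Aa, H2-Ab1, H2-Eb1 and Cd74, had a median of 0.994 in MF1 and 0.958 in Swiss Agouti. Without LA replicate 2 it was 0.936, with 1 H2-Ab1 probe at 0.15 as the exception. H2-DMa followed the block in both strains (0.993 and 0.928), H2-DMb1 did so less in Swiss Agouti (0.975 and 0.709), and H2-DMb2, H2-Oa and H2-Ob lay between -0.15 and 0.42.

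Outside the list, the 5 genes whose deviations were most like the mean of those 8 probes, by the lower of the correlations in MF1 and Swiss Agouti (8 arrays each), were Lpxn, Pip4k2a, Ctss, Adgre1 and Rnase6. Lpxn encodes a paxillin-related adaptor of leukocytes, Pip4k2a a phosphoinositide kinase, Ctss the protease cathepsin S, Adgre1 an adhesion receptor of macrophages and Rnase6 a ribonuclease. Their lower correlations were 0.93, 0.92, 0.92, 0.92 and 0.91. The 95th percentile over all probes was 0.81 in MF1 and 0.69 in Swiss Agouti. The MF1 values include LA replicate 2. Without that array, the MF1 correlation stayed at 0.83 for Pip4k2a, 0.76 for Rnase6 and 0.73 for Ctss, and was 0.31 for Lpxn and -0.08 for Adgre1. Ctss read -0.02, 0.91, -0.05 and -0.11 in the LA of MF1 and 0.21, 0.46, 0.02 and 0.26 in the RA. Its adjusted p (limma) was 0.97 in MF1 and 0.0842 in Swiss Agouti.

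In the order of the genes along chromosome 17 (RefSeq), the moving and the flat members alternate. H2-Oa comes first and was flat, followed by H2-DMa, the flat H2-DMb2 and H2-DMb1. Then come 4 genes of the class I pathway (Psmb9, Tap1, Psmb8 and Tap2), the flat H2-Ob, and H2-Ab1, H2-Aa and H2-Eb1, with H2-Eb2 and H2-Ea beyond them. The 4 class I genes differed between the sides by -0.11 to 0.04 log2 units in MF1 and by -0.33 to 0.04 in Swiss Agouti (LA minus RA). Psmb9, an immunoproteasome subunit, had the lowest of the Swiss Agouti values, -0.33. Cd74, which had the widest range, lies outside the locus on chromosome 18, and Ciita on chromosome 16.

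The rest of the pathway was counted in the same fit, in which 0.79% of all probes passed in MF1 and 0.63% in Swiss Agouti, so that lists of this size would hold few or no passing probes at the share over all probes. Of 12 probes of 7 class II promoter factors (the RFX, NF-Y and CREB genes), 0 passed in MF1 (limma, smallest adjusted p = 0.38) and 0 in Swiss Agouti (0.307). Of 20 probes of 11 genes on the interferon gamma route to Ciita, 0 passed in either strain, with medians of -0.04 and 0.00 log2 units (LA minus RA). Ifng itself differed by at most 0.06 on either of its probes. Of 13 probes of 9 endosomal processing genes, 0 passed, with medians of 0.08 and 0.02, and of 12 co-stimulation probes, 0 passed, with medians of 0.02 in both strains. Of 7 probes of 6 genes that act on class II at the cell surface, 0 passed. Among them Cd83, which protects class II from ubiquitination, was higher in LA by 0.44 log2 units in Swiss Agouti (adjusted p = 0.00661), under the fold threshold. It was singled out after its values had been seen, and it was 0.16 in MF1 (adjusted p = 0.395). The adhesion gene Icam1 of the co-stimulation list, also singled out afterwards, was higher in RA by 0.52 log2 units in Swiss Agouti (adjusted p = 0.0297), likewise under the fold threshold. In MF1 the Icam1 excess of RA was 0.26 (adjusted p = 0.396). Of 19 class I presentation probes, 0 passed, with medians of -0.02 in both strains. Without MF1 LA replicate 2, 0 probes of these lists passed in MF1, where 1.12% of all probes did.

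On MF1 LA replicate 2, genes of these lists took different values. Against the other 3 LA arrays, the probes of the lysosomal thiol reductase gene Ifi30 were higher by 0.74 and 1.37 log2 units, Lgmn (legumain) by 1.18, Ctss by 0.96 and Ctsz by 0.69 on either probe. The immunoproteasome gene Psmb10 was higher by 0.51 and 0.74, and Rfxank by 0.74. In the class I list Pdia3 was higher by 1.26, and the B2m probes were at 0.55, 0.56 and -0.07. The transporter Tap2 and the regulator Nlrc5 were at -0.05 and -0.03, and Ifng at -0.11 to -0.04. These genes were picked after their values had been seen. The array was the highest of the 8 in 10 of 13 endosomal processing probes, in 7 of 19 class I presentation probes and in 2 of 12 promoter factor probes, against 17.4% of all probes.

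Markers of other cell types are given beside the class II values. Each list's median correlation with the chain genes within groups follows for MF1, MF1 without LA replicate 2 and Swiss Agouti. It was 0.95, 0.68 and 0.56 for general leukocyte genes, 0.91, 0.74 and 0.21 for monocytes, and 0.69, -0.08 and 0.45 for macrophages. For dendritic cells it was -0.01, 0.23 and 0.08, and for B cells 0.18, 0.09 and -0.01. On MF1 LA replicate 2, 10 of 11 probes of 7 general leukocyte genes were the highest of the 8 arrays, with the list's median at 1.16 against -0.15 to -0.04 on the other LA arrays and 0.01 to 0.49 on the RA arrays. The 10 monocyte probes were all highest on that array (median 0.87), and so were 7 of 15 macrophage probes (median 0.49), against 17.4% of all probes. The monocyte probes differed widely there. Those of Chil3 read 2.95, 2.61 and 0.21, and those of Hp 2.14, 0.47 and 0.40. Fcgr4 read 1.44, Plac8 1.27, Itgam 0.33 and Ccr2 0.19. RA replicate 2 had the highest leukocyte and monocyte medians of the RA arrays, 0.49 and 0.37. The lists of dendritic cells, T cells, B cells, plasma cells and thymocytes had medians between -0.06 and 0.11 on the MF1 arrays and between -0.07 and 0.09 on the Swiss Agouti arrays. A flat list may also hold transcripts below detection, which these centred values cannot show. Several of the 19 dendritic cell probes measure the same genes, Itgae and Siglech, and so weigh on that list's median and counts. On LA replicate 2 the 19 dendritic cell probes ranged from -0.33 to 0.38, and it was the highest of the 8 arrays in 4 of them, near the share over all probes. The 17 B cell probes ranged from -0.19 to 0.60, with 7 highest there and the B cell receptor gene Cd79b at the upper end. The atrial cardiomyocyte list had medians of -0.13 to 0.06 on the MF1 arrays. The part of these cells in the class II values was not tested.

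**Figure D5:**
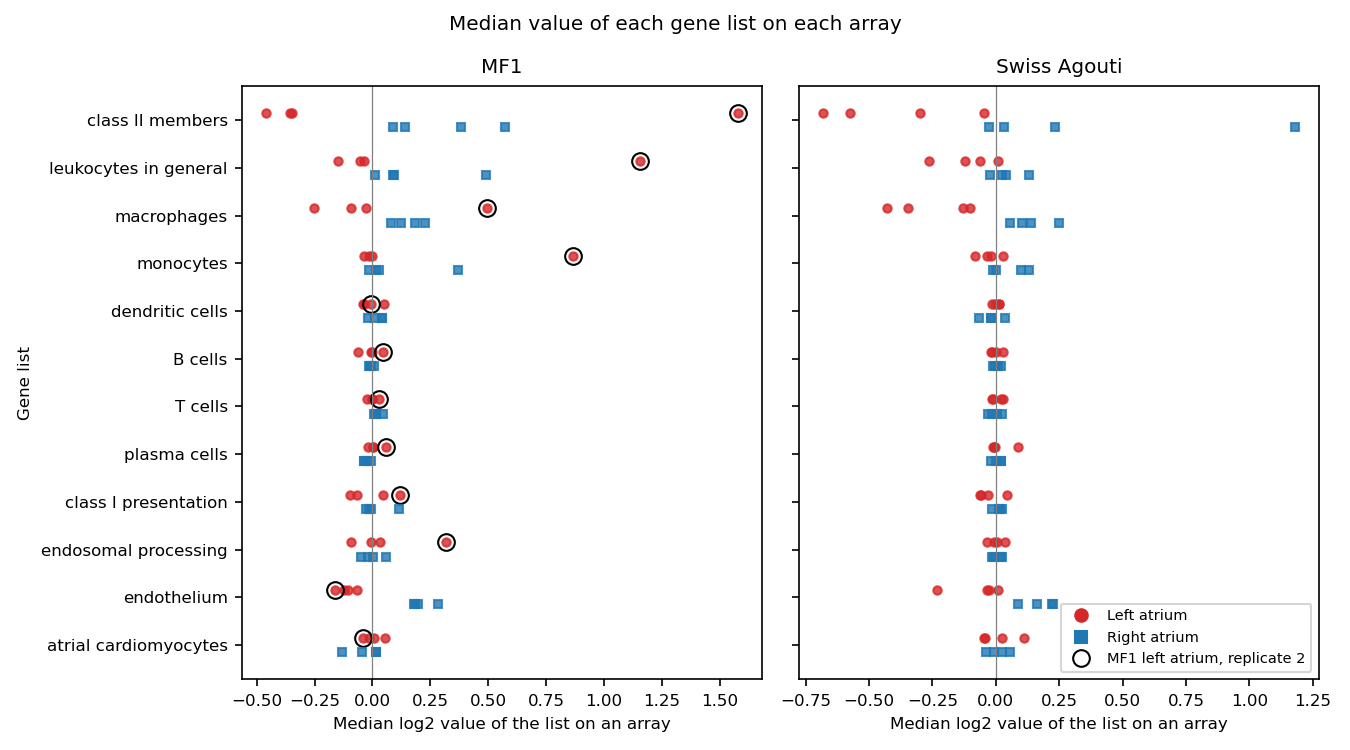
Median log2 value (horizontal) of each gene list (vertical) on each array, for MF1 (left panel) and Swiss Agouti (right panel), with circles for left and squares for right atria and a ring around MF1 LA replicate 2. That array is high in the class II, leukocyte, macrophage and monocyte lists and lies among the other arrays in the dendritic cell, T cell and cardiomyocyte lists. It is also the highest MF1 array in the endosomal processing (0.32), class I presentation (0.12), plasma cell (0.06) and B cell (0.04) lists. In the endothelium list it is the lowest MF1 array (-0.16).

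The left-right difference of the macrophage list went the way of class II in both strains. All 15 probes, of 10 genes, were lower in LA in MF1 (median -0.18, and -0.50 without LA replicate 2), against 50% of all probes. In Swiss Agouti 13 of 15 were (median -0.44), against 49.4%. The MF1 differences ran from -0.73 to -0.02, and probes of 1 gene are not independent. In Swiss Agouti the list's median lay between -0.43 and -0.10 on the LA arrays and between 0.05 and 0.25 on the RA arrays. In the fit, 3 of the 15 probes passed as higher in RA in Swiss Agouti and 0 in MF1, with 0.63% and 0.79% of all probes passing. Lyz2, a lysozyme gene of myeloid cells, read -1.01 to -0.49 in the Swiss Agouti LA and 0.18 to 0.44 in the RA on the probe that passed, a 1.94-fold higher RA signal (0.95 ± 0.11 log2 units, adjusted p = 0.00175, limma). Its other 2 probes differed by -1.04 and -0.18 (LA minus RA) and did not pass.

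C1qb, a complement subunit gene of macrophages, was 1.61-fold higher in the Swiss Agouti RA (0.69 ± 0.14, adjusted p = 0.0342). The scavenger receptor gene Cd163 was 1.58-fold higher on 1 of its 2 probes (0.66 ± 0.13, adjusted p = 0.0356). The other Cd163 probe differed by 0.07 in Swiss Agouti and by -0.04 in MF1 (LA minus RA). Both calls lay near the threshold and were lost when any of several single arrays was dropped. C1qb fell out of the passing set when any of LA replicates 1 and 2 and RA replicates 1, 3 and 4 was dropped, at adjusted p-values of 0.0731 to 0.0975. Cd163 no longer passed without LA replicate 3 or any 1 RA array (adjusted p = 0.0743 to 0.114). Nor did it pass without LA replicate 1, where the difference was 0.51 log2 units, under the fold threshold. In MF1, the first Cd163 probe was 1.66-fold higher in RA (0.73 ± 0.17, adjusted p = 0.0981), and with the replicate number as a block its adjusted p was 0.0223. The deviations of this Cd163 probe had a correlation of -0.01 with those of the class II chains in MF1, and LA replicate 2 was 0.11 log2 units below the other LA arrays on it.

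Among the general leukocyte genes, Cd52, a small surface glycoprotein gene, was 1.73-fold higher in the Swiss Agouti RA (0.79 ± 0.14, adjusted p = 0.0209). The call was lost without LA replicate 3 (adjusted p = 0.0705) or RA replicate 4 (0.0599). In MF1 it read 1.87 on LA replicate 2 and -0.64 to -0.44 on the other LA arrays. It was higher in RA by 0.24 ± 0.56 log2 units with all arrays and by 0.84 ± 0.26 without that array (adjusted p = 0.185). The list's median in Swiss Agouti lay between -0.26 and 0.01 in LA and between -0.02 and 0.13 in RA.

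Endothelial cells can also make class II. The median of the endothelial list lay between -0.16 and -0.07 on the MF1 LA arrays, LA replicate 2 included, and between 0.18 and 0.28 on the RA arrays, and in Swiss Agouti between -0.23 and 0.01 against 0.09 and 0.22. In MF1, 5 of its 8 probes were lower in LA, against 50% of all probes, and in Swiss Agouti 7 of 8, against 49.4%. The probes of Cdh5, Kdr and Tie1 were higher in LA in MF1, by up to 0.18 log2 units. Pecam1, an endothelial adhesion gene, was 1.52-fold higher in the MF1 RA on 1 of its 2 probes (0.61 ± 0.08, adjusted p = 0.00857), close to the fold threshold. Dropping LA replicate 2 (0.56), or replicate 3 (0.57) or 4 (0.58) of the RA, brought it under that threshold. In Swiss Agouti the same probe was higher in RA by 0.18 ± 0.16 (adjusted p = 0.741, limma). The smallest adjusted p of the endothelial list in Swiss Agouti was 0.000874 (limma), on a probe under the fold threshold. The other Pecam1 probe passed in neither strain, although its Swiss Agouti sides did not overlap. It read -0.37 to -0.25 in the Swiss Agouti LA and 0.13 to 0.31 in the RA, and in MF1 -0.33 to 0.11 against 0.03 to 0.66. Eng, the endoglin gene, was 1.59-fold higher in the Swiss Agouti RA (0.67 ± 0.11, adjusted p = 0.0152), and 0.58 without LA replicate 4, under the threshold. In MF1 it was 1.68-fold higher (0.75 ± 0.15, adjusted p = 0.0505), with an adjusted p of 0.0173 without LA replicate 2, of 0.0379 without RA replicate 3 and of 0.00858 with the replicate number as a block. Emcn, the endomucin gene, was higher in the MF1 RA by 0.63 log2 units (adjusted p = 0.0672), and by 0.77 without LA replicate 2, where it passed (0.00204). Emcn read 0.08 on LA replicate 2 and -0.53 to -0.40 on the other MF1 LA arrays. Eng read -0.21 there and -0.77 to -0.39 on the others. The adjusted p of the difference between the strains was 0.677 for Pecam1 and 0.955 for Eng. For Lyz2, C1qb, Cd163 and Cd52 it was 0.631 to 0.969.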

How the data were processed

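Total RNA of single, unpooled atria was hybridised to Illumina MouseRef-8 arrays. The deposited values are log2 signals that the authors quantile normalised in GeneSpring within each strain and set to each probe's median over the strain's arrays, so a fold change is kept but levels are lost. A further 16 array columns of signals before normalization could not be tied to samples and were not used. Probes were named through the platform's annotation, updated by gene number to RefSeq (23978 named, 1719 unnamed).

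LA and RA were compared in each strain by moderated linear models (limma 3.58.1 under R 4.3.3), using 4 arrays a side and Benjamini-Hochberg adjustment over 25697 probes. The threshold, taken from the study's methods, was an adjusted p under 0.05 together with more than 1.5-fold. limma replaced their test. The fitting was tested on simulated data. MF1 arrays of the same number deviated together (correlation 0.23 to 0.499, against at most 0.0203 for other numbers), though the labels name no shared animal. In Swiss Agouti they did not (-0.112 to 0.138), which does not show that they came from different animals. The values given come from fits without the number, and a fit with the number as a block is the alternative. The number of arrays limits the precision. Members and lists were chosen with earlier results of these data known. Named were all members, up to 4 passing probes of each other list by adjusted p, and the 5 genes most like the chain genes. Some listed genes were not analysed here. Alternatives were other fits, scalings and thresholds, and each array left out.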

Additional observations from a re-analysis of the deposited data

Results flagged for a closer look

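Among 56 sets of 4 arrays (14 class II probes in 4 groups), 12 had 1 array far from the other 3 by Dixon's gap test at the 95% level. Chance flags about 1 in 20 such sets, but the genes and MF1 LA replicate 2 had been singled out on these same values and the probes are not independent, so the flags are a description only. In 11 of the 12 the array was MF1 LA replicate 2, and the gap took 0.843 to 0.964 of the range. Its log2 values were 2.01 for H2-Aa, 2.00, 1.96, 1.75 and 2.06 for the H2-Ab1 probes, 2.14 and 2.27 for Cd74, 1.38 for H2-DMa, 1.41 for H2-DMb1, 0.87 for H2-Eb1 and 0.65 for Ciita. The other LA arrays lay between -1.26 and 0.01 on these probes. The remaining set was H2-Aa in the Swiss Agouti RA, where replicate 1 read 1.25 and the other 3 lay between -0.00 and 0.09.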

How the results depend on the processing

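Leaving out single arrays moved the count of passing class II probes from 0 to between 0 and 8 in MF1 and between 0 and 2 in Swiss Agouti, the 8 coming without LA replicate 2 and the 2 without Swiss Agouti LA replicate 2. The median difference of the class II probes (LA minus RA) then ran from -0.76 to -0.08 in MF1 and from -0.88 to -0.45 in Swiss Agouti, and the median correlation of the chain genes was 0.936 without MF1 LA replicate 2. The count of all passing probes ran from 117 to 289 (203 with all arrays) and from 134 to 196 (162). With ordinary variances 51 and 37 probes passed, and by adjusted p alone 346 and 518. With the replicate block 292 and 165 passed, of which 0 were class II probes, and the median differences stayed at -0.23 and -0.70. In MF1 the replicate block let Cd163 and Eng pass. In Swiss Agouti, where arrays of the same number did not deviate together, C1qb (adjusted p = 0.0691) and Cd52 (0.0637) did not pass with it. A fit of all 16 arrays, array weights and centring each array on its median left 0 class II probes passing. In the fit of all 16 arrays Lyz2 (adjusted p = 0.0716), C1qb (0.16), Cd163 (0.0878) and Cd52 (0.608) did not pass in Swiss Agouti. With ordinary variances the named genes of other lists that had passed gave adjusted p-values of 0.0761 to 0.236. No other call of these genes changed with the block. Background correction, a filter on dim probes and the slide as a block were not run, because the raw columns could not be tied to samples and no slide is named.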
